A study of Drosophila melanogaster with 12 samples.

Results

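The measurements described here are 4 spotted cDNA arrays, of 12 in the series, that set heads of drug-treated male flies (Drosophila melanogaster) against heads of untreated males at day 14. They are the 4 arrays titled PTZ-ETH-NF, and all their annotated genes and gene families were described. The treated flies had received pentylenetetrazole (PTZ, 8 mg/ml in food) for 7 days, ethosuximide (ETH, 3.48 mg/ml) for 3 days and normal food for a final 4 days. The untreated flies had been kept on normal food throughout and moved to fresh vials on the same days (7, 3 and 4 days). All flies were unmated Oregon-R wild-type males, 3 to 4 days old at the start and kept at 24 °C. The other 2 groups, of 4 arrays each, were harvested at day 10 at the end of ETH (7 days of PTZ, 3 of ETH) or at day 14 after PTZ and 7 days of normal food without ETH. They are used only for the differences given near the end. Each array carried its own pair of pooled head RNA samples, with 30 flies in a vial at the start, so the 4 arrays are 4 replicates of pools and not of single flies. The labels do not say whether the groups shared untreated pools.

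PTZ is a convulsant that blocks chloride channels gated by GABA, the main inhibitory transmitter of the insect brain. ETH is an antiepileptic drug, known in mammals for blocking T-type calcium channels. Fly heads hold brain, eyes, fat body, muscle and cuticle, and foreign compounds are broken down there by enzymes such as cytochrome P450 monooxygenases, glutathione S-transferases and UDP-glycosyltransferases. The comparison asks what remained different from untreated heads 4 days after the last drug was withdrawn.

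Each array gave a log2 ratio for 5077 to 7399 probes after the authors' filters, against 6869 to 7433 on the arrays without ETH and 9106 to 10433 at day 10. The annotation used here named 6793 genes on the array; 2910 of them, and 5135 probes in all, had a value on at least 3 of the 4 arrays and were tested. Treated RNA was labelled with Cy5 on replicates 1 and 2; on replicates 3 and 4 it carried Cy3. No source used here states which channel is the numerator on these dye swaps. The ratios were read as Cy5 over Cy3 and the swaps were turned in sign, which is an assumption, so values without turning stand beside the results. The arrays do not settle the reading. As deposited and corrected for print position, arrays of the same orientation correlated across probes at 0.30 (replicates 1 and 2) and 0.39 (replicates 3 and 4), and arrays of opposite orientation at 0.00 to 0.33, which becomes 0.00 to -0.33 once the swaps are turned. These correlations run over probes, which do not stand for replicates. Only some markers of head tissues could be read: the neuronal genes nSyb and Gad1, 5 of 8 glial, 4 of 9 photoreceptor, 9 of 9 fat body and 4 of 8 muscle markers had a value. Of 9 testis and accessory gland genes, which a sieved head should lack, 3 had a probe and only betaTub85D gave a value, on 2 arrays. A sieved head should lack digestive tract genes too, but both with a probe gave a value, Jon65Aiv on 4 arrays and Jon25Bi on 1. Of the 3 hemocyte genes with a probe, 2 gave a value. A ratio carries no level, so the tissue was checked only by which markers were measured.

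At day 14, 4 days after ETH, few genes stood apart from untreated heads. Of 5135 probes 12 passed an adjusted p of 0.05, or 0.234% (limma, mean against 0 with a dye term, Benjamini-Hochberg over all probes); 8 were lower in treated heads (0.156%) and 4 higher (0.0779%). Of these 12 probes, 7 had values on 3 arrays and 5 on all 4, while 1834 of the 5135 tested probes had 3 values. The 12 probes included 7 with 1 annotated gene (0.241% of the 2910 genes tested). CG2233, Eaf, Cyp313a1, Cyp9f2, CG9689 and GXIVsPLA2 fell on every array that measured them, and CG7968 was called higher with arrays of mixed sign. Over all 3301 probes with 4 values, 414 (12.5%) had 1 sign on all 4 arrays, or 803 (24.3%) with the swaps not turned. An unadjusted p under 0.05 was reached by 574 probes, against 257 that this threshold would give if no probe differed. This excess also depended on the settings. The number was 253 without the dye term, 233 with all 12 arrays in the fit, 418 without the print-position correction and 988 with the swaps not turned. The count of probes past the adjusted threshold was 0 without the print-position correction, 0 without the dye term, 111 without replicate 2 and 214 (4.17%) with the swaps not turned. The SE rests on 2 residual degrees of freedom with 4 arrays and 1 with 3, to which limma added 16.9 shared over probes. In pooled heads, fewer cells of a type and less RNA per cell cannot be told apart.

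Both P450 genes that passed were lower after treatment. Cyp313a1 (CG3360), a P450 enzyme gene, stood at -0.67, -0.24, -1.02 and -1.01 log2 on replicates 1 to 4. It was below 0 on all 4 arrays, least so on replicate 2. The fitted mean was -0.73 (SE 0.10, n = 4, adjusted p = 0.000754). Its size and sign depended on the processing: it was -0.33 (adjusted p = 0.308) after medians of slide rows and columns were also removed, and 0.28 (adjusted p = 0.11) with the swaps not turned. Cyp9f2 (CG11466), another P450 gene, stood at -1.13 on replicate 1, -0.65 on replicate 3 and -0.13 on replicate 4, with no value on replicate 2. Its values were below 0 in both dye orientations and spread widely. The fitted mean was -0.76 (SE 0.13, n = 3, adjusted p = 0.00819), and -0.37 (adjusted p = 0.104) with the swaps not turned. With only 3 arrays the lone Cy5 array counts as much as both swaps together in this mean. The dye term fits that array exactly, so its distance from the swaps does not enter the SE or the p. After row and column medians were also removed, Cyp9f2 stood at -0.60 (adjusted p = 0.186). The 3 other tested probes in its row of spots were all below 0 (median -0.26). The only other tested probe in the row of Cyp313a1 stood at -0.39.

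The lowest means belonged to CG2233 and Eaf, and in each the adjacent spots of replicate 1 disagreed. CG2233, a gene without a named function in the annotation used here, stood at -1.46, -0.55 and -0.44 on replicates 1, 3 and 4 (fitted mean -0.98, SE 0.12, n = 3, adjusted p = 0.000585). On replicate 1 its adjacent spots gave -3.35 and 0.26 as deposited, a gap of 3.61. Eaf (CG11166), whose product binds the elongation factor ELL of RNA polymerase II, stood at -1.65, -0.0525 and -0.26 on the same arrays (fitted mean -0.90, SE 0.12, n = 3, adjusted p = 0.000754). On replicate 1 its spots gave -0.38 and -3.40, a gap of 3.02. Gaps over 1 log2 were found in 94 of 5636 spot pairs on that array (1.67%), and the median gap was 0.13. Once values from such pairs were left out, neither gene had enough arrays to be tested and 8 probes passed in all. Read without turning, CG2233 stood at -0.48 (adjusted p = 0.0245) and Eaf at -0.75 (adjusted p = 0.0017). Replicate 1 counts as much as both swaps together in either reading. The swaps lie above 0 when not turned, so the sign in that reading comes from replicate 1 alone. The dye term fits replicate 1 exactly in both genes, so its distance from the swaps does not enter their SE or p.

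CG9689 and GXIVsPLA2, which are printed next to each other on the array, had smaller and more even changes. CG9689, without a named function in the annotation, stood at -0.70, -0.54, -0.17 and -0.83 on replicates 1 to 4 (fitted mean -0.56, SE 0.11, adjusted p = 0.0226). GXIVsPLA2 (CG17035), a secreted phospholipase A2 of group XIV, stood at -0.44, -0.39, -0.47 and -0.60 (fitted mean -0.47, SE 0.09, adjusted p = 0.0272). Its plain SD over the 4 arrays was 0.0881, and the 4 arrays lay close together. In the row of spots that holds both genes, 8 of the 9 other tested probes were also below 0, with a median of -0.16. In the rows of CG2233, Eaf and CG7968 the medians of the other tested probes were -0.0743, 0.0387 and -0.13. The means of neighbouring probes correlated at 0.35 over all tested probes, and at 0.21 after row and column medians were removed. The part of the slide position in the calls was not tested. After row and column medians were removed, CG9689 stood at -0.50 (adjusted p = 0.212) and GXIVsPLA2 at -0.41 (adjusted p = 0.148). Without turning the swaps, the means were -0.0605 and 0.0585.

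CG7968 passed on the positive side, but its arrays disagreed. It stood at -0.13 and 0.0223 on replicates 1 and 2 and at 1.31 and 2.16 on replicates 3 and 4, so it was high only where the treated RNA was in Cy3. The value on replicate 4 came from 1 spot. On replicate 3 the adjacent spots gave 0.77 and 1.72, turned in sign but not otherwise corrected. With both spots required, replicate 4 dropped out and the fitted mean was 0.63. As reported, over all 4 arrays, the fitted mean was 0.84 (SE 0.12, adjusted p = 0.000855), against a plain SD of 1.09. With the swaps not turned it passed in the opposite direction at -0.89 (adjusted p = 0.000398). A second probe of the gene stood at -0.0005, with arrays from -0.21 to 0.21. The remaining 5 probes past the threshold have no gene in the annotation used here: 3 were higher, at 0.93, 0.70 and 0.58, and 2 lower, at -0.65 and -0.54. Each of the 3 higher probes had 3 values and was highest on its lone Cy5 array, at 1.69, 1.34 and 0.96. Their swaps stood at 0.615 and -0.27, at -0.0057 and 0.105, and at 0.22 and 0.17. The probes at 0.70 and 0.58 had adjacent spots up to 1.57 and 1.92 apart.

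**Figure D1:**
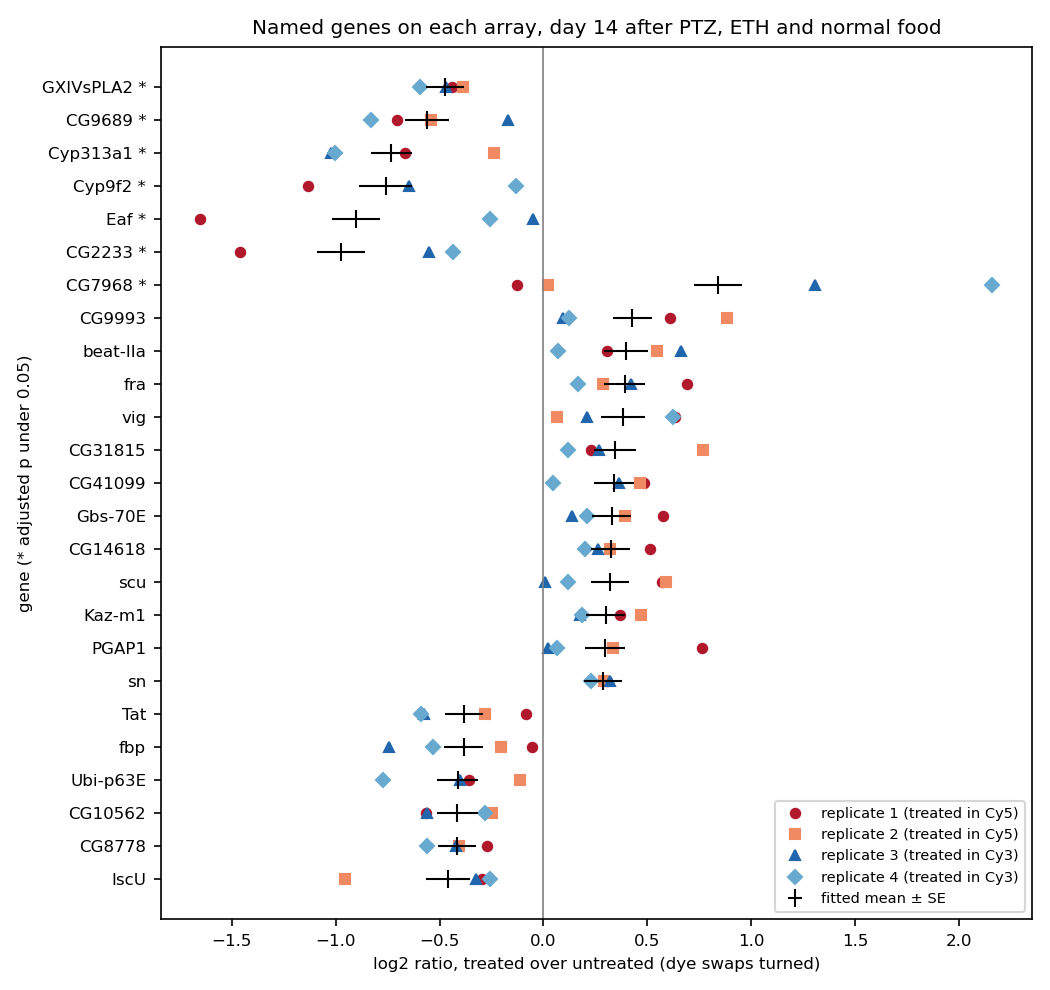
Log2 ratio of treated over untreated heads (x axis, dye swaps turned) of the named genes (y axis) on each of the 4 arrays; symbols are arrays, black bars the fitted mean ± SE, and asterisks an adjusted p under 0.05. The 6 genes that fell lie left of 0 on every array shown, CG7968 is split by dye orientation, and the genes below them did not pass.

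Among genes with the same sign on all 4 arrays, the next lower genes were 6 that did not pass, with fitted means of -0.46 to -0.38 and adjusted p of 0.0854 to 0.105. IscU (CG9836), the scaffold on which mitochondrial iron-sulfur clusters are built, stood at -0.30, -0.95, -0.33 and -0.26 (fitted mean -0.46, SE 0.11, adjusted p = 0.094). Replicate 2 lay far below the other 3 arrays there. Ubi-p63E, a polyubiquitin gene, stood at -0.36, -0.12, -0.40 and -0.78 (mean -0.41, SE 0.10, adjusted p = 0.0975). Tat, the gene of tyrosine aminotransferase, which starts tyrosine breakdown, stood at -0.0865, -0.28, -0.58 and -0.59 (mean -0.38, SE 0.09, adjusted p = 0.102). fbp, the gluconeogenic enzyme fructose bisphosphatase, stood at -0.0550, -0.21, -0.75 and -0.53 (mean -0.38, SE 0.09, adjusted p = 0.105). In Tat and fbp the swaps were lower than the arrays with treated RNA in Cy5. CG8778 stood at -0.42 and CG10562 at -0.41. Of these 6 genes only IscU was also below 0 with the swaps not turned (-0.17); the other 5 lay between 0.0086 and 0.25.

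On the positive side no gene with 1 sign on all arrays passed. The 12 with the smallest p had fitted means of 0.29 to 0.43 and adjusted p of 0.0833 to 0.236. CG9993 was highest, at 0.61, 0.88, 0.0922 and 0.12 on replicates 1 to 4 (mean 0.43, SE 0.09, adjusted p = 0.0833). Its values were higher where the treated RNA was in Cy5. fra (frazzled), the netrin receptor, stood at 0.69, 0.29, 0.42 and 0.17 (mean 0.39, SE 0.10, adjusted p = 0.114), and beat-IIa, of the beaten path family of axon guidance proteins, at 0.31, 0.55, 0.66 and 0.0720 (mean 0.40, SE 0.10, adjusted p = 0.129). Gbs-70E, which targets a protein phosphatase to glycogen, stood at 0.33 (SE 0.09, adjusted p = 0.143), and its other probe at 0.22. sn (singed), the actin-bundling protein fascin, was most even over the arrays, at 0.31, 0.29, 0.32 and 0.23 (mean 0.29, SE 0.09, adjusted p = 0.208). A second probe of sn stood at -0.0273 and a second probe of vig, a gene of the RNA interference machinery at 0.38, stood at -0.0432, so separate probes of these genes disagreed. scu, a mitochondrial hydroxyacyl-CoA dehydrogenase, stood at 0.32, and PGAP1, which trims GPI anchors, at 0.30. CG31815, CG41099, CG14618 and Kaz-m1 stood at 0.35, 0.34, 0.32 and 0.30. Not turned, 11 of the 12 were above 0, up to 0.32, and vig was at -0.0333.

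Mostly different probes passed in the other reading of the dye swaps. The not-turned mean of a probe is the same number as the dye term of the turned fit. If the turned reading is right, the values below therefore measure a dye difference and not treatment. With the swaps not turned, 157 probes passed as higher and 57 as lower (102 of 2910 genes with 1 probe a gene, 3.51%), and 6 of these 214 also passed in the turned reading, CG7968 and 1 probe without a gene among them with opposite signs. Among the 214 probes, 59 had 1 gene and the same not-turned sign on all 4 arrays after centring and position correction. The genes below were named from these. Lsp2, a larval serum protein made by fat body, then stood at 0.67, 0.46, 0.63 and 0.43 (mean 0.55, adjusted p = 0.00316), and at 0.0170 in the turned reading. RpLP0, a ribosomal stalk protein, stood at 0.47 (adjusted p = 0.00703), Mdh1, a malate dehydrogenase, at 0.47 (0.00703) and Act87E, an actin, at 0.46 (0.00811; second probe 0.14). Idgf6, of the chitinase-like growth factor family, stood at 0.59 (0.00367), the serine protease gene Jon65Aiv at 0.46 (0.00774; second probe 0.11), CG18745 at 0.69 (0.00118) and CG6696 at 0.60 (0.00282). As the rule for naming required, all of these genes had a corrected, not-turned ratio above 0 on all 4 arrays, in both dye orientations. Idgf6 was only at 0.017 on replicate 1. Lower genes of that reading were Gbs-76A at -0.54 (0.005), CG12990 at -0.50 (0.00729), CG7149 at -0.47 (0.00841), CG14889 at -0.46 (0.0079), CG6282 and xmas at -0.46 and -0.45 (both 0.015) and the zinc finger gene disco at -0.40 (0.0188). DnaJ-1, a co-chaperone of Hsp70, stood at -0.49 (0.00537) by the named probe, and at 0.60, 0.22 and 0.13 by its other 3 probes. Across the 180 genes with at least 2 tested probes, the probe means had the same sign in 61.1% of genes turned and 56.7% not turned.

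**Figure D2:**
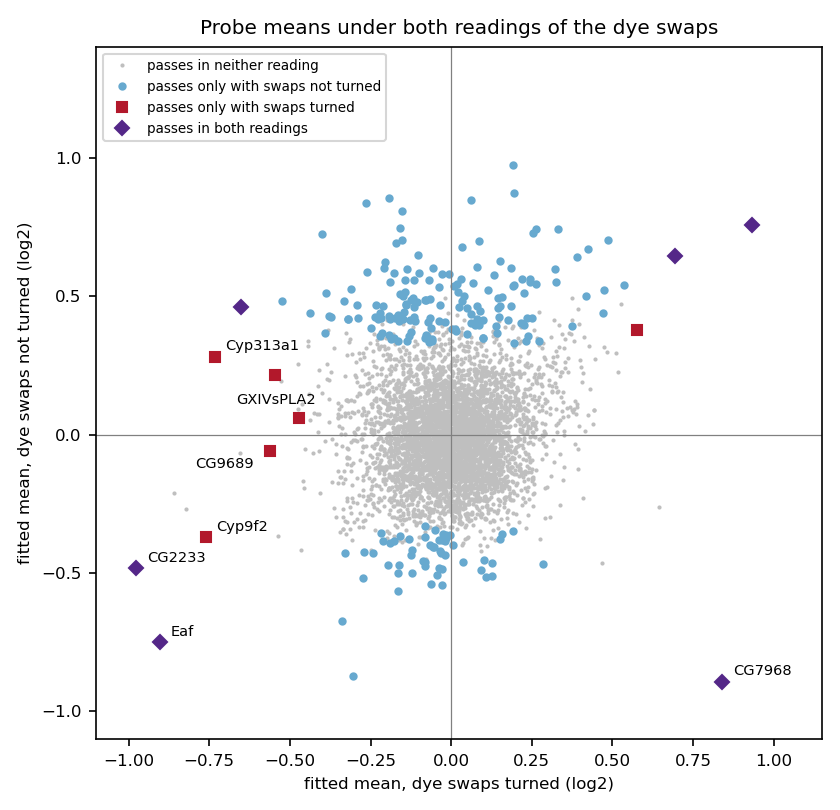
Fitted mean log2 ratio of each of 5135 probes with the dye swaps turned (x axis) and not turned (y axis); marks show in which reading a probe passed an adjusted p of 0.05. In the turned reading 12 passed and in the other 214, with 6 in both; CG7968 and a probe without a gene among these have opposite signs in the 2 readings.

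Genes of the drug targets and related pathways were measured only in part, and no tested gene of these lists passed (background 0.241% of genes). Neither the GABA receptor subunit gene Lcch3 nor any calcium channel gene had values on enough arrays to be tested. The GABA receptor gene Rdl had no annotated probe, so these lists do not show whether the direct targets changed. Of the GABA and glutamate supply genes 6 of 10 on the array were tested, with 2 above and 4 below 0 and a median of -0.0618 (all genes tested: 1391 above and 1519 below, median -0.0063). Gad1, the enzyme that makes GABA from glutamate, stood at -0.15, -0.25, -0.26 and -0.15 (mean -0.20, SE 0.09, adjusted p = 0.433). It was below 0 on all 4 arrays, and at 0.0021 with the swaps not turned. Eaat2, an amino acid transporter, stood at -0.12, Gdh, glutamate dehydrogenase, at -0.0685, the glutamine synthetases Gs1 and Gs2 at 0.11 and -0.0551, and the GABA transporter Gat at 0.12 (n = 3). Of 6 chloride channel genes 3 were tested: ClC-c at 0.13, ClC-b at -0.0175 and GluClalpha, a glutamate-gated chloride channel, at 0.0110. The GABA receptor subunit gene Lcch3 was measured on 2 arrays, at -0.57 and 0.10, and the chloride channel gene alka at -0.31 and 0.0510. The metabotropic receptor gene GABA-B-R3 was also measured on 2 arrays, at -0.49 and 0.29, with opposite signs on the swaps. Of the glutamate receptors, CG11155 stood at 0.13 (n = 3) and GluRIIA, a muscle receptor subunit, at -0.0414; Nmdar1, Ekar, GluRIIB, Grik, KaiR1D and mGluR had 1 or 2 values each, from -0.45 to 0.72. The 3 calcium channel genes on the array were measured on 2 arrays each and were not tested. Ca-alpha1D, an L-type pore subunit, stood at -0.0120 and 0.25, Ca-beta at 0.0855 and 0.32, and stj (straightjacket), an auxiliary subunit, at -0.16 and -0.14 by the probe with 2 values. unc80, of the NALCN sodium leak channel, stood at 0.0803.

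Of the enzymes that handle foreign compounds, only the P450 list held genes past the threshold. Of 73 P450 genes on the array 31 were tested, 22 of them on 4 arrays; 10 were above and 21 below 0, with a median of -0.0401, and 2 passed as lower (background 0.241% of genes). Among the 29 that did not pass, values ran from -0.53 to 0.24. Cyp4e2 stood at -0.18, -0.48 and -0.72 on replicates 1 to 3 (mean -0.53, SE 0.12, adjusted p = 0.093), and Cyp28d1 at -0.23, -0.36, -0.32 and -0.30 (mean -0.30, SE 0.09, adjusted p = 0.184). Both were below 0 on every array that measured them. Not turned, 22 of 31 P450 genes were above 0, with a median of 0.0845. Glutathione S-transferases, a family of conjugating enzymes, had 1 of 10 tested genes above 0 and a median of -0.0893, with GstD9 lowest at -0.29 (SE 0.11, adjusted p = 0.293). UDP-glycosyltransferases, which attach sugars to them, had 5 of 6 above 0 and a median of 0.0965, with Ugt35D1 at 0.67, 0.17 and 0.0850 (mean 0.40, SE 0.12, n = 3, adjusted p = 0.149). The medians were 0.0590 and 0.0750 in the reading without turning, so the sign of the glutathione S-transferase list turned and that of the UDP-glycosyltransferases did not. Of the 5 tested carboxylesterase and juvenile hormone hydrolase genes 3 were above 0, and Jheh2, a juvenile hormone epoxide hydrolase, stood at -0.41 (SE 0.10, adjusted p = 0.099), or 0.23 not turned. Its replicate 2 was at 0.0352, and the other probe of Jheh2 had a plain mean of -0.15. Juvenile hormone binding proteins had 1 of 5 above 0 and a median of -0.0715, with Jhbp14 at -0.30 and Jhbp13 at -0.32 (adjusted p = 0.218 and 0.28).

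Genes of energy metabolism lay mostly below 0 in the turned reading and above 0 in the other, and none passed with the swaps turned. All 8 tested ATP synthase genes were below 0 (median -0.14), and 6 of 8 were above 0 with the swaps not turned (median 0.26). The array medians of this list were 0.0088, 0.12, -0.35 and -0.39 on replicates 1 to 4, so the swaps were low and the other arrays near 0 or above. Glycolysis and gluconeogenesis genes had 3 of 13 above 0 and a median of -0.12, or 10 of 13 and 0.22 not turned. An unadjusted p under 0.05 was reached by 6 of the 13, all lower, where 6.56% of all genes tested were lower and 5.09% higher at that level. Pgi, glucose phosphate isomerase, stood at -0.21, 0.11, -0.58 and -0.78 (mean -0.36, SE 0.10, adjusted p = 0.129), and Ald1, aldolase, at -0.11, 0.13, -0.48 and -0.62 (mean -0.27, adjusted p = 0.26). Gpdh1, Tpi and Mdh1 stood at -0.26, -0.24 and -0.23, and Eno, enolase, at -0.0011. In Pgi and Ald1 replicate 2 was above 0 and the swaps were lowest. All 5 tested genes of the TCA cycle were below 0 (median -0.0777), led by ScsbetaA, a subunit of succinyl-CoA synthetase, at -0.22. Fat metabolism had 1 of 12 above 0 (median -0.0619), with the thiolase gene yip2 at -0.24 and the fatty acid synthase FASN1 at -0.32 (n = 3), and 8 of 12 above 0 not turned. The respiratory chain had 7 of 21 above 0 (median -0.0483), and V-ATPase 3 of 7.

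Genes of protein synthesis held no member past the threshold. Cytosolic ribosomal proteins had 4 of 17 above 0 (median -0.0629), with RpS28b at -0.35 (n = 3, adjusted p = 0.241), and mitochondrial ribosomal proteins 19 of 28 above 0 (median 0.0423), with mRpS17 at 0.25 (adjusted p = 0.298). In the other reading the counts were 13 of 17 and 13 of 28. Translation factors had 8 of 19 above 0, with eIF3b at -0.40 (SE 0.11, adjusted p = 0.143). The proteasome had 5 of 13 above 0, and heat shock and chaperone genes 4 of 11 (median -0.0909). Cnx99A, a calnexin of the endoplasmic reticulum, stood at -0.29 (adjusted p = 0.358).

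No member of the neuronal lists passed. Synaptic vesicle and fusion genes had 2 of 8 above 0 (median -0.0783), with the synaptobrevin gene nSyb at -0.13 and the dynamin gene shi at -0.16. Rab and vesicle traffic genes had 13 of 28 above 0, potassium channels 2 of 6 and learning and calcium signalling genes 9 of 15. In the biogenic amine list 5 of 8 were above 0, and it held values at both ends. t (tan), the hydrolase that frees histamine and dopamine from beta-alanine, stood at -0.90, -0.0223 and -0.32 on replicates 1, 3 and 4 (mean -0.54, SE 0.12, n = 3, adjusted p = 0.0854), while the serotonin receptor 5-HT2A stood at 0.53, 0.31 and 0.40 (mean 0.44, SE 0.12, n = 3, adjusted p = 0.127). DopEcR, a receptor for dopamine and ecdysteroids, stood at 0.26 (adjusted p = 0.277). Neuropeptides and their receptors had 3 of 9 above 0 (median -0.10), with AstC, allatostatin C, at -0.27 and the insulin-like peptide gene Ilp2 at -0.31 (n = 3). The list's median was -0.11 with the swaps not turned. Acetylcholine genes Ace and nAChRbeta1 stood at -0.11 and -0.0686.

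Glial and photoreceptor genes had medians near 0 and members well below it, none of which passed. Of 12 glial genes 5 were above 0 (median -0.0197). Miox, a myo-inositol oxygenase, stood at -0.35, -0.49 and -0.52 on replicates 1, 3 and 4 (mean -0.43, SE 0.11, n = 3, adjusted p = 0.136), the astrocyte gene alrm at -0.32 (adjusted p = 0.258) and drpr, the engulfment receptor Draper, at -0.32 (adjusted p = 0.269). Of 12 phototransduction genes 6 were above 0 (median -0.0067), with chp, the photoreceptor adhesion protein chaoptin, at -0.44 (n = 3, adjusted p = 0.143), the light-gated channel gene trpl at -0.33 (0.208) and the eye-specific kinase gene inaC at -0.32 (0.231). trpl and Arr1, an arrestin, passed in the opposite direction with the swaps not turned, at 0.48 and 0.42. In trpl the arrays stood at 0.38, -0.0805, -1.05 and -0.58. Of 7 clock genes 4 were above 0; Pdp1, a clock transcription factor, stood at 0.53 (SE 0.15, adjusted p = 0.143), with 1.72 on replicate 1 and at most 0.28 on the others, and the photoreceptor cry at -0.25.

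The remaining lists described defence and structure. Immune peptides and recognition had 3 of 9 above 0 (median -0.0853, or 0.11 not turned), with the antifungal peptide gene Drs at -0.11. Antioxidant genes had 2 of 5 above 0, serine proteases 7 of 9 (median 0.0609), odorant-binding proteins 6 of 14, chemosensory receptors 3 of 4 and cuticle proteins 14 of 20 (median 0.0533, with TwdlM at 0.27). Yolk, larval serum and fat body genes, a list that also holds fbp, had 3 of 8 above 0 and a median of -0.0141, against 8 of 8 and 0.25 with the swaps not turned. On replicates 1 to 4 the median of this list was 0.17, 0.19, -0.36 and -0.23, split by dye orientation. Actin, tubulin and muscle genes had 3 of 11 above 0 (0.0846 as the median not turned), histones and chromatin genes 3 of 6 and insulin and TOR genes 1 of 4. Of the 34 lists with at least 5 tested genes, 26 had a median below 0 and 8 above, and 12 and 22 with the swaps not turned. Over 17 other settings, which do not include the swaps not turned, 13 of the 34 medians kept their sign, and 3 of these 13 also kept it with the swaps not turned.

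**Figure D3:**
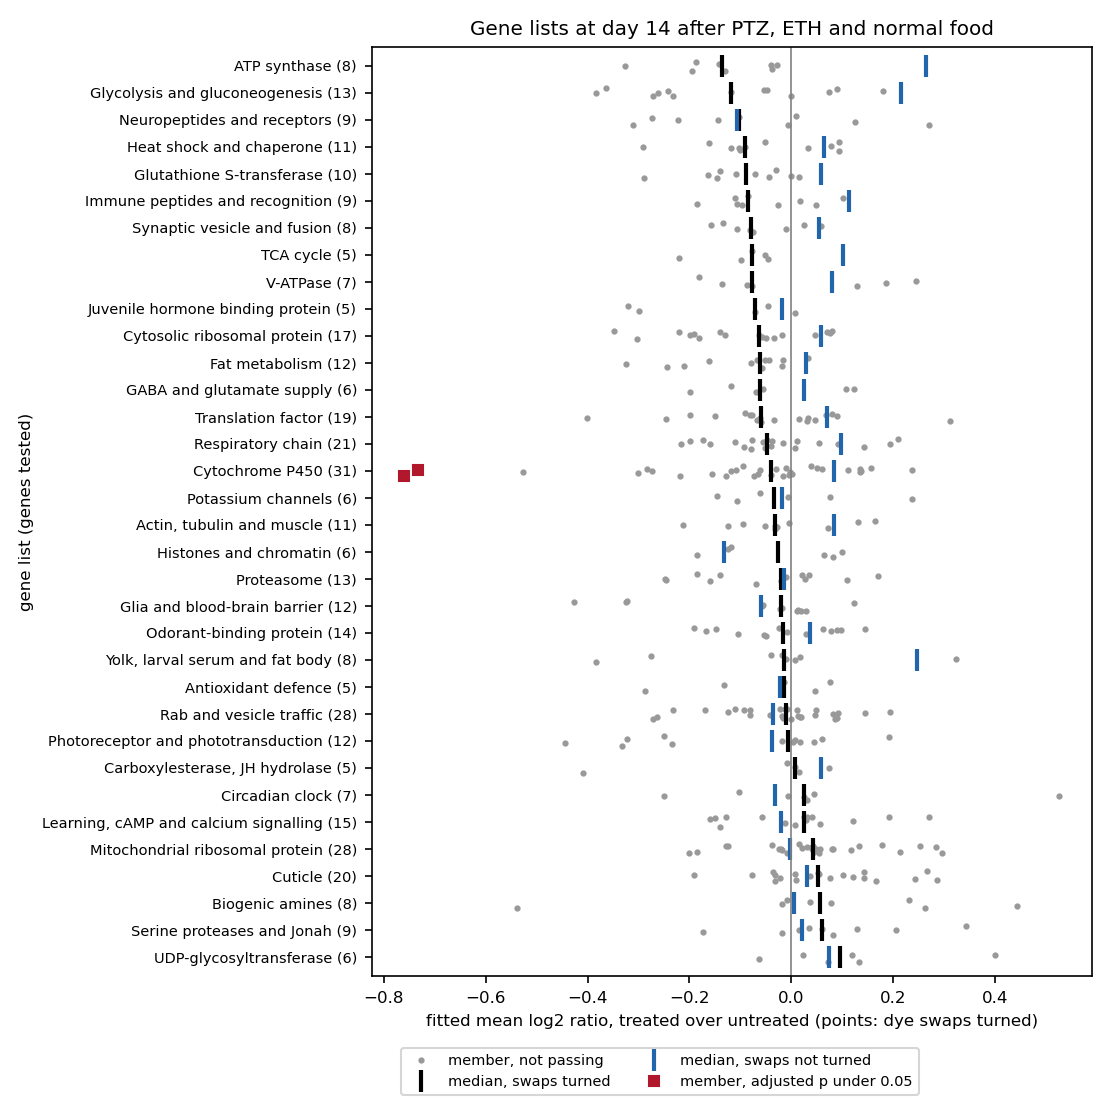
Fitted mean log2 ratio of treated over untreated heads (x axis) for the members of the 34 lists with at least 5 tested genes (y axis); grey points are members and red squares the 2 P450 genes past the threshold, black bars the median with the dye swaps turned and blue bars the median with them not turned. ATP synthase, glycolysis and the fat body list have medians of 0.22 to 0.26 in the second reading and below 0 in the first.

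The arms with and without ETH were compared at day 14, and no probe differed past the threshold: 0 of 4766 (0%) by limma, where 268 probes had an unadjusted p under 0.05 and 238 would if none differed (lowest adjusted p = 0.736). The genes that passed against untreated heads had the following ratios in the arm without ETH. Cyp313a1 stood at -0.60, -0.14, -1.28 and -0.50 on replicates 1 to 4 there, so all 8 day-14 arrays were below 0 and the arms overlapped. Subtracting the arm without ETH gave -0.10 (SE 0.17, adjusted p = 0.952). Cyp9f2 stood at -0.39, -0.17, -0.33 and -0.55 (difference -0.31, SE 0.19, adjusted p = 0.899), and CG9689 and GXIVsPLA2 had plain means of -0.30 (SD 0.14) and -0.25 (SD 0.10) with differences of -0.26 and -0.22 (both adjusted p = 0.896). For GXIVsPLA2 the arrays ran from -0.596 to -0.389 after ETH and from -0.379 to -0.159 without, so the arms nearly touched, and the difference did not pass. The gene was picked for its low values after ETH, and how many probes had separate arms was not counted. Eaf stood at 0.29, 0.26 and -0.12 on the 3 arrays that measured it (difference -0.80, SE 0.27, adjusted p = 0.852). CG2233 stood at -0.10, 0.62 and -1.101 on replicates 1, 2 and 4 there (difference -0.55, SE 0.38, adjusted p = 0.899). CG7968 stood at 2.10, 0.22, -0.11 and -1.34 (difference 0.62, SE 0.59, adjusted p = 0.925), so in that arm its highest array was one with the treated RNA in Cy5. With the replicate number as a block, which both day-14 groups share together with their dye orientation, the odorant-binding protein gene Obp19c was called, at -1.79 (SE 0.23, adjusted p = 0.0462), as it was without replicate 3 of the ETH arm (-1.74, adjusted p = 0.042). This rests on 1 probe, whose arrays stood at -1.07, -1.60 and 0.31 with ETH and at 0.20, 0.27 and 2.62 without, so the groups overlapped. Its difference without the block was -2.29 (SE 0.46, adjusted p = 0.736), or 0.98 with the swaps not turned, and a second probe of Obp19c differed by 0.10 (SE 0.13, adjusted p = 0.928).

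Against the end of ETH at day 10, 3 of 4451 probes differed (0.0674%), and all 3 were lower at day 14. CG9360 stood at -0.0003, -0.30, 0.0615 and -0.22 at day 14 and at 0.81, 1.20, 1.53 and 1.51 at day 10. The groups did not overlap, and the difference was -1.38 (SE 0.18, adjusted p = 0.0154). The gene was picked for its small p, and how many probes had separate groups was not counted. Once array spreads were equalised, the difference of CG9360 was -1.03 (adjusted p = 0.173). The other 2 probes have no gene in the annotation used here; they differed by -1.38 (SE 0.19, adjusted p = 0.0154) and -1.36 (SE 0.21, adjusted p = 0.0494). With the replicate number as a block no probe passed (lowest adjusted p = 0.0898), leaving out any single day-14 array left 0 or 1 probe (CG9360 without replicate 1, adjusted p = 0.0461), and with the swaps not turned the difference of CG9360 was 0.22. Among P450 genes, Cyp4e2 differed by -1.003 (SE 0.21, adjusted p = 0.213) and Cyp6a20 by -0.85 (SE 0.19, adjusted p = 0.259), and Jheh2 by -1.12 and -1.08 on its 2 probes (adjusted p = 0.0541 and 0.164). These 3 genes were above 0 at day 10, with plain means of 0.44, 0.58 and 0.97 (0.67 by the second Jheh2 probe), and below 0 at day 14, but none of the differences passed. Cyp313a1 had a plain mean of -1.15 (SD 0.57, n = 3) at day 10 and -0.73 (SD 0.37, n = 4) at day 14, a difference of 0.54 (SE 0.20, adjusted p = 1).

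**Figure D4:**
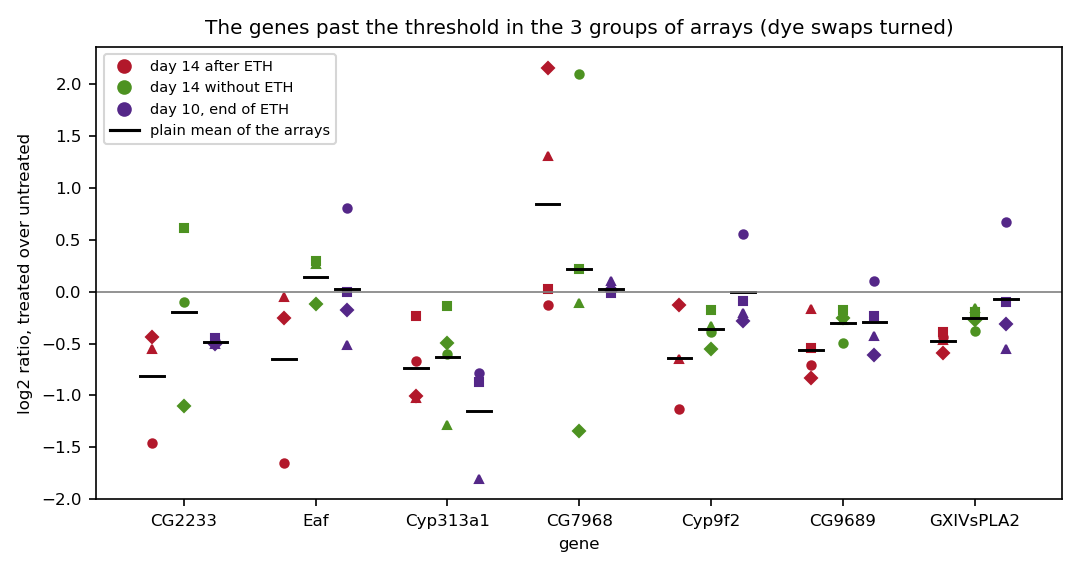
Log2 ratio of treated over untreated heads (y axis, dye swaps turned) of the 7 genes past the threshold (x axis) in the 3 groups; colours are groups, symbols are replicates 1 to 4 (circle, square, triangle, diamond) and black lines plain means. Cyp313a1 is below 0 on every array of all 3 groups that measured it. The highest array of GXIVsPLA2 after ETH (-0.389) lies just below the lowest without ETH (-0.379).

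The number of probes past the threshold was most sensitive to the reading of the swaps and to replicate 2, the array with the fewest probes. Removing replicate 1, 3 or 4 gave 7, 10 and 13 probes, of which 4, 4 and 3 were among the reported 12. Only 6, 5 and 5 of the 12 had enough values to be tested there. Removing replicate 2 gave 111 probes, which included all 11 of the reported 12 that could still be tested. GXIVsPLA2 passed without replicate 2 and missed the threshold without any of the other 3 arrays (adjusted p = 0.0529 to 0.15), while Cyp313a1 passed without each of the 4.

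**Figure D5:**
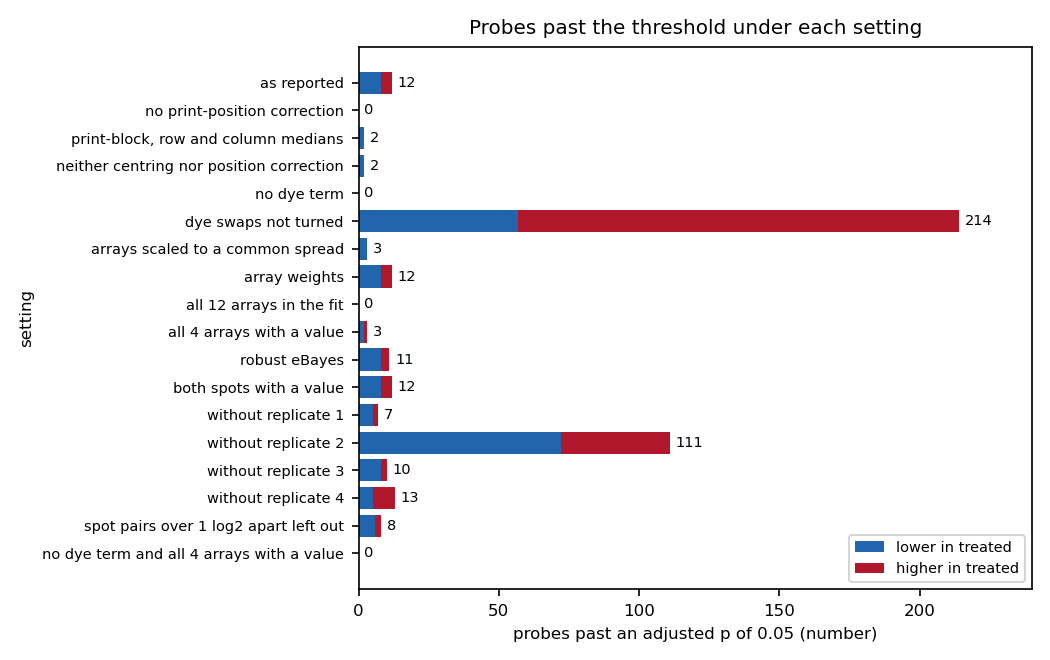
Number of probes past an adjusted p of 0.05 (x axis) under each setting (y axis), split into lower and higher in treated heads. The count is 12 as reported, 0 in 4 settings, 111 without replicate 2 and 214 with the dye swaps not turned.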

How the data were processed

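Each array compared treated and untreated head RNA in Cy5 and Cy3. The authors, as their design text in the series' labels records, measured the spots in GenePix Pro 6.0, normalized ratios with Acuity 4.0, ignored spots under 100 units and under 2 times the average background, and filtered on saturation, flags and uniformity. The deposited values were log2 ratios per spot; the log2 scale was taken from the values, because the labels do not state it. Spots at the ceiling of 16.61 were set to missing.

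Each probe's 2 spots were averaged, each array was centred on its median, and the median of each of 48 print blocks, a layout inferred from the values, was subtracted. Replicates 3 and 4 were turned in sign. Probes with values on at least 3 arrays were fitted with limma 3.58.1 in R 4.3.3 (mean against 0 and a dye term per probe), with Benjamini-Hochberg adjustment over all probes and a threshold of 0.05. In a probe with 3 values this mean is that of both orientations and differs from the plain mean. The array alone in its orientation is then fitted exactly, and the probe's own spread comes only from the other 2 arrays. Differences between groups used 8 arrays with a common dye term. The script was tested on simulated data. The number of arrays limits the precision.

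Symbols came from the platform annotation, updated by RefSeq: 7558 of 13824 probes had 1 gene, 51 several and 6215 none. A family used 1 probe a gene, the probe with most values. Named were up to 12 genes in each direction by smallest p with 1 sign on every array, filled with genes that did not pass, up to 4 members a family and the measured genes of the drug target lists. The members and lists were chosen with earlier results of these data known. No arrays held the same values: at most 0.289% of spots were identical in any of 66 pairs.

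Arrays of the same number in both day-14 groups deviated together (correlations of 0.25 to 0.53), but they also share dye orientation; the difference of replicates 1 and 2 correlated at 0.26 between the groups and that of replicates 3 and 4 at -0.02. With day 10 the correlations were -0.10 to 0.24, and the numbers were not taken as pairs. The labels call the arrays biological replicates.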

Additional observations from a re-analysis of the deposited data

Results flagged for a closer look

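Of 119 named genes with 4 values, 9 had 1 array far from the other 3. Chance alone would give about 1 gene in 20 if the 4 arrays of a gene shared 1 distribution. The 2 dye orientations need not share it, so whether 9 exceeds chance cannot be told. IscU stood at -0.95 on replicate 2 against -0.33 to -0.26 on the others, Gs1 at 0.27 on replicate 2 against 0.05 to 0.06, GstE3 at 0.20 on replicate 2 against -0.31 to -0.23, and ATPsynD at 0.15 on replicate 2 against -0.35 to -0.27. On replicate 1, Pdp1 stood at 1.72 against -0.0045 to 0.28, betaTub60D at 0.23 against -0.26 to -0.23, and ND-15 at -0.41 against -0.17 to -0.13. Gs2 stood at -0.63 on replicate 3 against 0.0643 to 0.20, and ClC-b at -0.29 on replicate 4 against 0.0440 to 0.11. None of these genes passed against untreated heads, and the cause of the stray arrays was not tested.

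Against day 10, CG9360 differed by -1.38, a probe without a gene (unnamed_probe_5625) by -1.38 and another (unnamed_probe_13229) by -1.36, each by limma's test of the difference itself.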

How the results depend on the processing

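The 12 probes past the threshold became 0 without the position correction, without the dye term, with all 12 arrays in the fit, and with neither the dye term nor probes missing an array. They became 2 with row and column medians, 2 with neither centring nor position correction, 3 once array spreads were equalised, 3 with only probes on all 4 arrays, and 214 with the swaps not turned. Leaving out an array gave 7 to 111. Array weights, robust eBayes and both spots measured gave 12, 11 and 12, and leaving out spot pairs over 1 log2 apart, a choice made after seeing the data, gave 8. Of the 34 list medians 26 were below 0, 12 with the swaps not turned and 23 to 32 otherwise. With the swaps not turned these values reversed: Cyp313a1 0.28, GXIVsPLA2 0.0585, CG7968 -0.89, trpl 0.48, Arr1 0.42, nec 0.41, Galphaq -0.35, and against day 10 CG9360 0.22 and unnamed_probe_5625 0.23. The difference to the arm without ETH gave 0 probes, 1 with the replicate block and 0 to 1 without an array. The difference to day 10 gave 3 probes, 0 with the replicate block, 0 with scaled arrays, 8 with all 12 arrays and 0 to 1 without an array. The causes were not tested. Of 166 named genes that did not pass, 99 changed sign under some alternative, 85 of them with the swaps not turned.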
